A study of Rattus norvegicus with 20 samples.

Results

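Glucose, lactate and tricarboxylic acid (TCA) cycle genes were examined in rat mammary cancers and normal mammary tissue. The set was a list of 42 genes: the main glucose transporter, the glycolytic enzymes and a regulator of them, lactate dehydrogenases and lactate carriers, pentose phosphate enzymes, the pyruvate dehydrogenase complex with its kinases, pyruvate carboxylase, the TCA cycle enzymes with their cytosolic partners, and a pair of hypoxia genes. Members were found by matching the accession of each array probe to RefSeq. In this way 39 of the 42 genes were measured, among 36043 genes tested, through 50 probes. Of those 36043, 8662 matched a gene symbol. The others were array entries without a match, each counted as a gene in the shares over all genes below. No matched probe represented Pfkp, Pgd or Car9, which were not analysed here.

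All rats were female Sprague-Dawley rats (Jcl:SD) that had received whole-body gamma rays from a caesium source, 4 Gy at 0.5 Gy/min, at 7 weeks of age, and were followed for 30 weeks. Irradiation was shared by every group, controls included. Obesity-prone (OP) and obesity-resistant (OR) rats were the heavier and the lighter animals on a diet with 45 kcal% fat, and lean controls (LC) ate a diet with 10 kcal% fat. The 12 cancers were adenocarcinomas of 6 OP, 3 OR and 3 LC samples, selected for uniform histology, and the 8 normal tissues, from rats of matched age, were 3 OP, 2 OR and 3 LC samples. Each sample was hybridised to 1 single-colour Agilent array. Separate animals are not stated for each sample, so p-values measure only the spread between these samples.

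Glycolysis splits glucose into pyruvate in the cytosol and yields a little ATP without oxygen. Pyruvate is then either reduced to lactate and exported, or taken into the mitochondrion, where pyruvate dehydrogenase or pyruvate carboxylase passes it to the TCA cycle. Many tumours are known for high glucose uptake and lactate release even when oxygen is present, and the lactating mammary gland draws on the same glucose for lactose and fat.

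The arrays themselves differed between the tissues. Of the probes, 61.2% to 79.3% were well above background on cancer arrays and 87.7% to 97.6% on normal arrays. All 14 measured adipocyte markers fell in the cancers, with a mean level of 7.59 to 8.20 on the log2 scale in cancers and 11.55 to 12.46 in normal tissue, and on no cancer array were Lep and Aqp7 well above background. All 12 luminal epithelial markers and all 9 proliferation markers rose, whereas 5 of 6 fibroblast markers and 4 of 4 endothelial markers fell. In such bulk tissue, fewer cells of a type and less RNA per cell cannot be told apart. The part of cell makeup in the differences below was not tested. Several arrays stood apart: skeletal muscle markers were highest in OP cancers 2 and 6 (9.46 and 10.91, against 7.58 to 8.15 in the other cancers) and in OR normal tissue 2 (9.84), luminal markers were lowest in LC normal tissues 1 and 3 (9.39 and 9.93), and T cell markers were highest in LC normal tissue 3 (11.46). Proliferation markers in LC normal tissue 2 (9.55) were above those of the other normal tissues (7.49 to 8.66) and within the range of the cancers. That array also set the normal maximum of Aldoa, Tpi1, Ldha, Slc16a3, Pdk1, Taldo1 and Idh3a, and of Ldhb, Suclg1 and Mdh1, which were lower in the cancers.

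Most of the glycolytic pathway was higher in the cancers. Across the 42 listed genes, 21 of the 39 measured were called higher in cancers and 9 lower, and 9 did not pass. Calls were made by limma on normalized log2 intensities at an adjusted p under 0.05. Over all genes tested, 62.5% were called in this comparison, 29% higher and 33.5% lower, so the 9 members that fell were a smaller share than the background and the 21 that rose a larger one. The median log2 difference was 0.45 over the members and -0.03 over all genes. Cancers and normal tissues did not overlap at all for 7 members (4 higher and 3 lower), and 20.2% of all genes were free of overlap. The member counts were 20 higher and 11 lower without the 5 arrays that stood apart in markers, and 21 higher and 6 lower with the slide as a block. Normalized by the 75th percentile of the processed signal, without quantile normalization, the median of all genes shifted to -1.50, and 18.1% of calls were higher in place of 46.5%. The split was 18.0% with the same scaling after background correction and 39.4% in the authors' deposited table. Under these 3 scalings 19 to 21 members were still called higher.

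**Figure D1:**
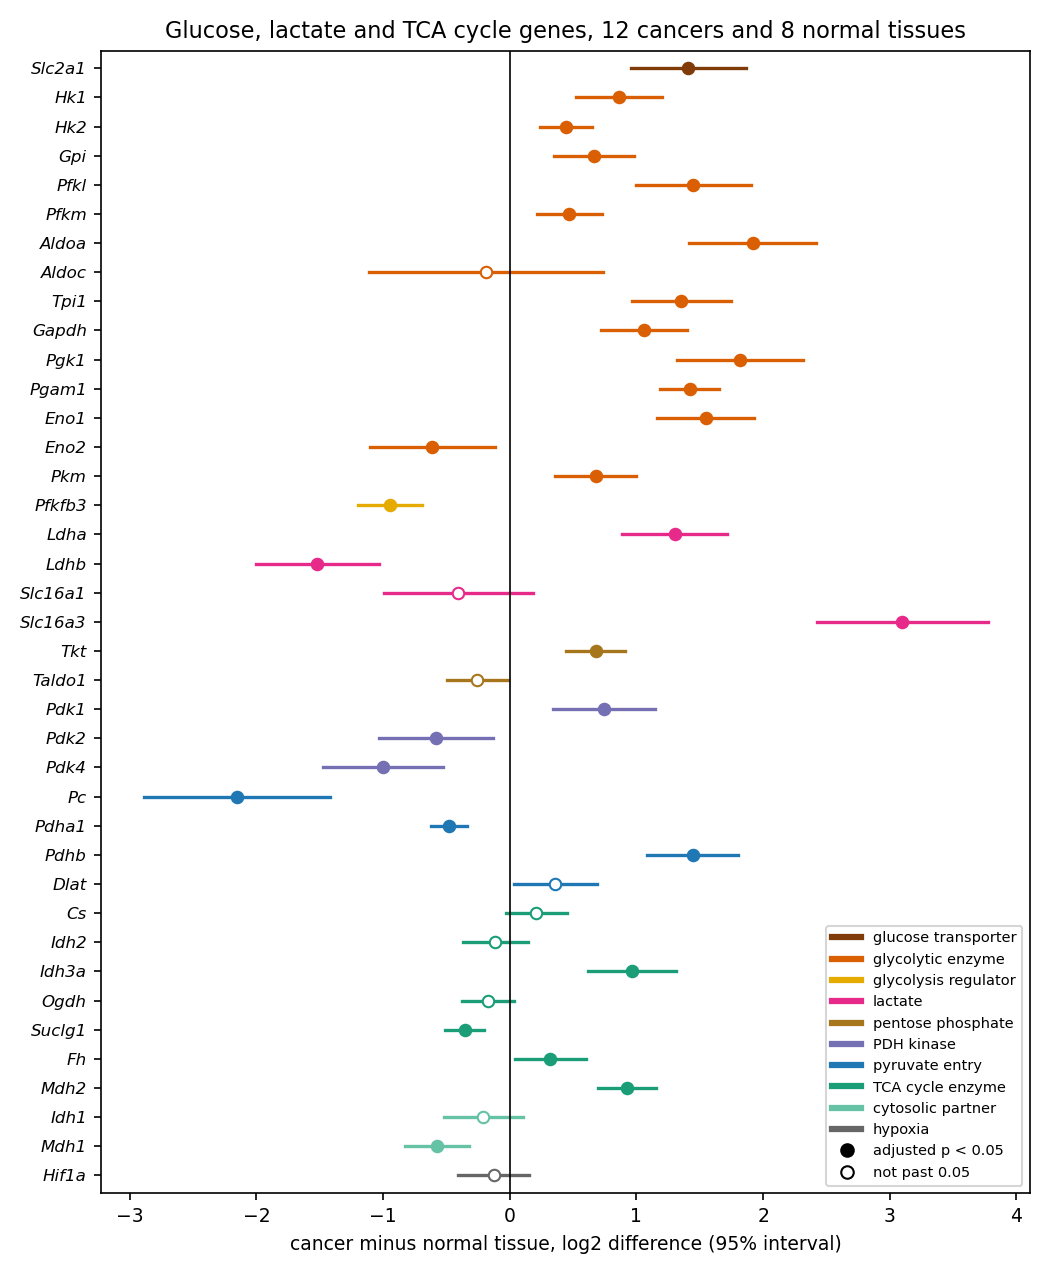
Log2 difference between 12 cancers and 8 normal tissues for the 39 measured genes, coloured by role, with 95% intervals from limma. Filled points passed an adjusted p of 0.05. Most orange glycolytic enzymes lie to the right of 0, Slc16a3 is farthest right at 3.1 and Pc farthest left at -2.15.

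The main glucose transporter on the list rose. Slc2a1, the widely expressed glucose transporter of the plasma membrane, had a normalized log2 intensity of 12.12 at the lowest, 13.22 at the median and 14.42 at the highest in cancers, and 11.21, 11.88 and 12.17 in normal tissue. In 11 of 12 cancers it exceeded every normal tissue. The fitted difference was 1.41 (SE 0.21), a 2.66-fold rise with an adjusted p of 3.13e-05.

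Among the glycolytic enzymes, 12 of the 14 measured rose, 1 fell and 1 did not pass, with a median difference of 0.96. Aldoa, the muscle-type aldolase that cleaves the phosphorylated sugar, rose the most by the brightest probe of each gene: it was 12.21, 14.16 and 14.77 (lowest, median and highest) in cancers and 12.01, 12.20 and 12.39 in normal tissue. Only OP cancer 1 fell within the normal range. The rise was 3.78-fold (log2 1.92, SE 0.24, adjusted p = 4.02e-06 by limma). Pgk1, the phosphoglycerate kinase that makes the first ATP of the pathway, was 11.45, 12.49 and 13.49 in cancers and 10.15, 10.57 and 12.10 in normal tissue. It rose 3.53-fold (log2 1.82, SE 0.23), and 9 of 12 cancers exceeded every normal tissue.

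Pgam1 (phosphoglycerate mutase) and Eno1 (enolase), which act in turn on the next steps, separated the tissues without overlap. Pgam1 was 15.37, 16.09 and 16.67 in cancers against 14.40, 14.73 and 14.97 in normal tissue. Its rise of 1.42 (SE 0.11) had the smallest adjusted p of all members, 3.93e-08. Another, dimmer Pgam1 probe rose by 2.33, more than Aldoa. Eno1 was 15.15, 16.58 and 16.91 in cancers against 14.72, 15.01 and 15.11 in normal tissue, a rise of 1.55 (SE 0.18). The Eno1 ranges lay close together only because OP cancer 1, at 15.15, was just above the highest normal tissue.

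A further 3 enzymes rose by over 1 on the log2 scale, each exceeding every normal tissue in 11 of 12 cancers. Pfkl, the liver-type phosphofructokinase at the main control step, was 8.71, 10.06 and 10.53 in cancers and 7.59, 8.69 and 8.97 in normal tissue, a difference of 1.45 (SE 0.21). Tpi1, the triose phosphate isomerase, was 10.32, 11.38 and 12.17 in cancers and 9.58, 10.17 and 10.79 in normal tissue, a difference of 1.36 (SE 0.19). Gapdh, the dehydrogenase often taken as a loading control, was 13.84, 14.94 and 15.40 in cancers and 13.67, 13.81 and 14.21 in normal tissue, a 2.09-fold difference (log2 1.06, SE 0.16, adjusted p = 3.16e-05 by limma). These 3 genes kept their call in this comparison under all 32 alternatives run over both tissues.

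The other glycolytic enzymes moved less. Hk1 (0.86, SE 0.16) and Hk2 (0.45, SE 0.10), the hexokinases that trap glucose in the cell, Gpi (0.66, SE 0.15), the isomerase after them, Pfkm (0.47, SE 0.12), the muscle-type phosphofructokinase, and Pkm (0.68, SE 0.15), the pyruvate kinase, rose. The direction of Hk2 rests on the scaling: it was -0.80 with the 75th-percentile scaling of the processed signal, -0.55 with that scaling after background correction, and -0.80 in the authors' deposited table. Another Hk1 probe, dimmer on average, rose by 2.11, also more than Aldoa. Eno2, the neuronal enolase, fell by 0.61 (SE 0.23, adjusted p = 0.0304 by limma), and that call was lost in 11 of 32 alternatives. Aldoc, the brain-type aldolase, differed by -0.19 (SE 0.44), with cancers from 9.99 to 12.97 and normal tissues from 10.35 to 12.67, and did not pass.

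**Figure D2:**
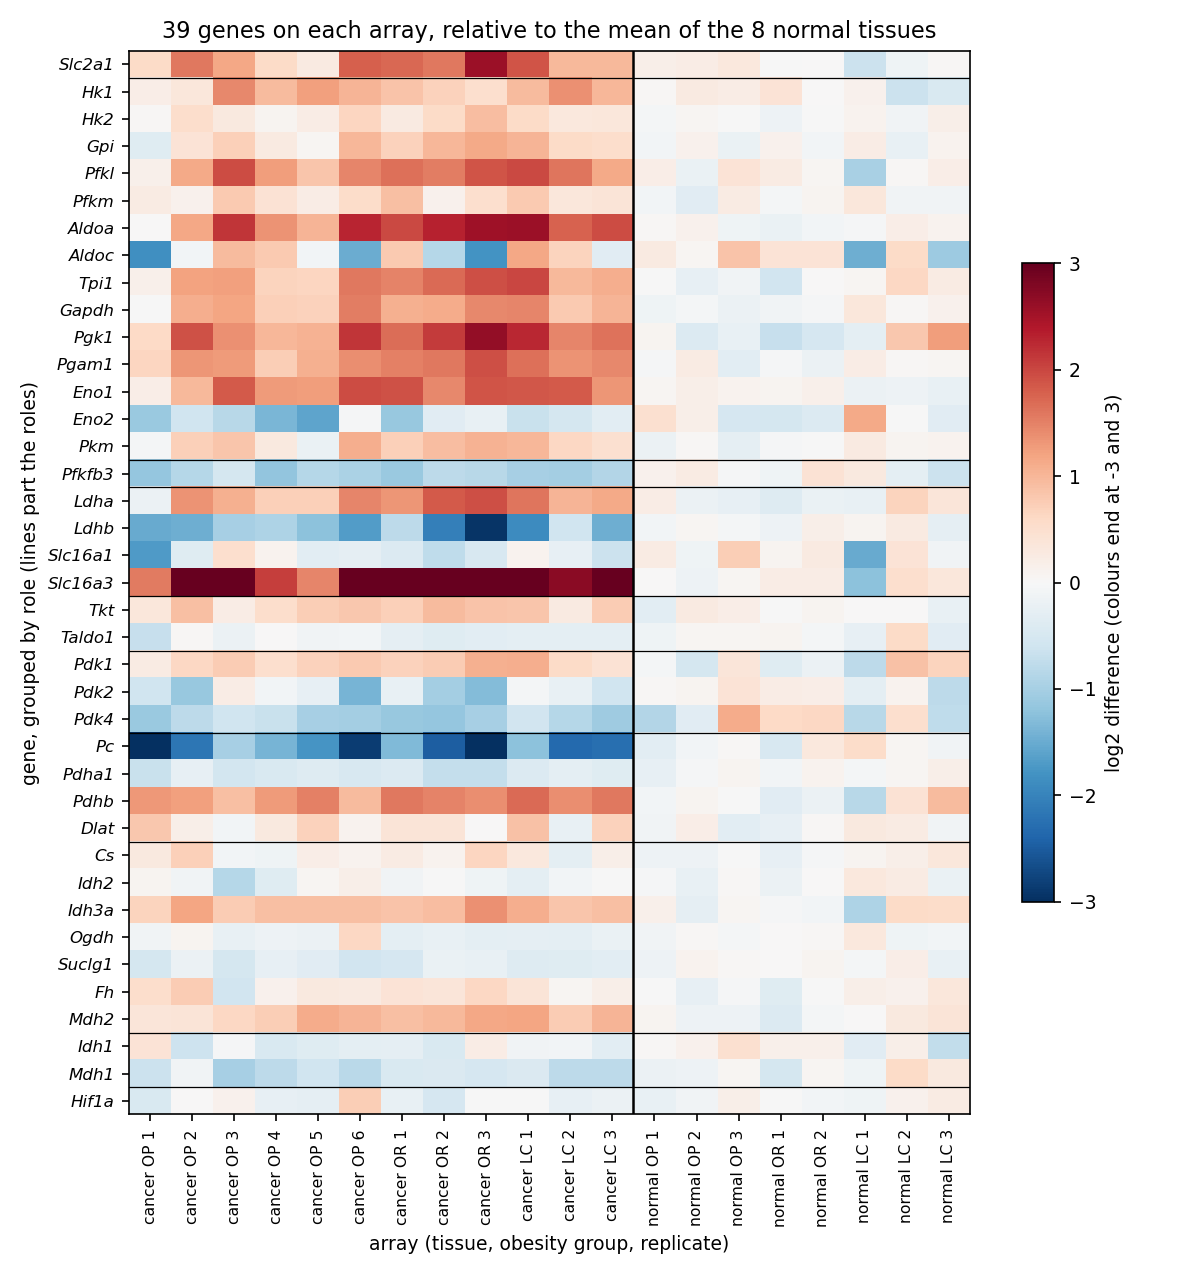
Each of the 39 genes (vertical axis, grouped by role) on each of the 20 arrays (horizontal axis), as the log2 difference from the mean of the 8 normal tissues. Glycolytic enzymes are mostly red in the 12 cancers, OP cancer 1 is the palest of them, and Ldhb and Pc are blue throughout the cancers.

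Pfkfb3, a bifunctional enzyme that raises an allosteric activator of phosphofructokinase, fell by 0.95 (SE 0.12, adjusted p = 5.69e-06 by limma). It was 6.84, 7.10 and 7.49 in cancers and 7.36, 8.06 and 8.46 in normal tissue, and 11 of 12 cancers were below every normal tissue. On 11 of 12 cancer arrays its signal was well above background.

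The lactate dehydrogenase subunits changed in opposite directions. Ldha, the lactate dehydrogenase subunit that favours making lactate, was 10.78, 12.19 and 12.90 in cancers and 10.57, 10.78 and 11.62 in normal tissue, and 11 of 12 cancers exceeded every normal tissue. It rose 2.46-fold (log2 1.30, SE 0.20, adjusted p = 2.82e-05 by limma). Ldhb, the subunit of heart type that favours using lactate, was 10.73, 12.20 and 13.06 in cancers and 13.40, 13.66 and 13.93 in normal tissue, with no overlap. Its log2 difference was -1.52 (SE 0.23), with an adjusted p of 3.22e-05.

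Slc16a3, the monocarboxylate carrier that exports lactate from glycolytic cells, showed the largest difference of the 39 genes. It was 11.59, 13.22 and 14.50 in cancers and 8.88, 10.25 and 10.62 in normal tissue, so the lowest cancer exceeded the highest normal tissue. The rise was 8.57-fold (log2 3.1, SE 0.32, adjusted p = 6.61e-07 by limma). Slc16a1, the broadly expressed carrier of the same family, differed by -0.41 (SE 0.28) and did not pass (adjusted p = 0.214).

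**Figure D3:**
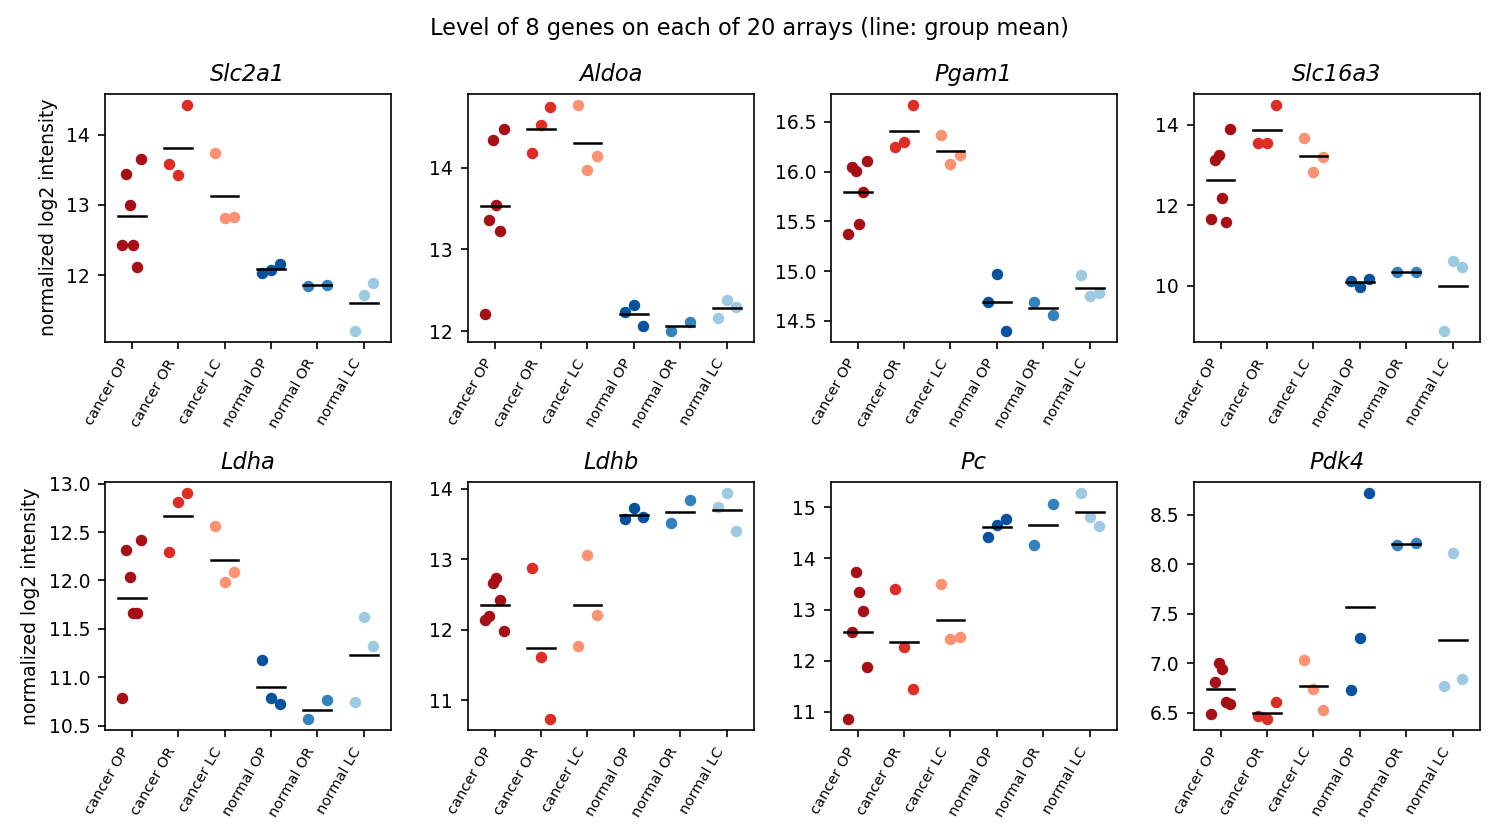
Normalized log2 intensity of 8 genes on every array, by tissue and obesity group, with the group mean as a line. Each panel has its own axis range. Slc16a3 and Pgam1 of all 12 cancers lie above all normal tissues, and Ldhb and Pc of all 12 cancers lie below them.

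Partner genes were then compared within each array, since the difference of a pair of genes on 1 array does not move with a scale factor common to that array. Of 11 pairs planned, 9 were measured, and 8 passed a two-sided exact permutation test over the 20 samples adjusted over the 9 pairs. The share of other gene pairs that would pass was not computed. Among single genes 62.5% were called and 20.2% were free of overlap, so these counts are not shown to be particular to the pairs. The pairs were chosen with earlier results of these data known, so these p-values describe how far the samples separate and are no independent evidence. Pair values are plain means over 12 cancers minus 8 normal tissues, so their sizes differ from the limma differences, which weight the obesity groups equally. Slc16a3 changed by 3.35 more than Slc16a1, Ldha by 2.63 more than Ldhb, Eno1 by 2.21 more than Eno2, and the mitochondrial Mdh2 by 1.47 more than the cytosolic Mdh1. In these 4 pairs the cancers and normal tissues did not overlap, and each had an adjusted exact p of 1.79e-05. Their unadjusted p was 7.94e-06, the smallest that the 125970 arrangements of the samples can give. Aldoa changed by 1.94 more than Aldoc, Pdk1 by 1.61 more than Pdk4 and by 1.24 more than Pdk2, and these pairs overlapped. Pdk4 was well above background on 5 of 12 cancer arrays, so the size of its pair is not exact. Hk2 changed by 0.47 less than Hk1 (adjusted exact permutation p = 0.0439), and that call was lost in 12 of 24 alternatives and its sign turned in 1. For Idh2 against Idh1 the difference was 0.07 (adjusted exact permutation p = 0.73), and this pair did not pass. The Pdk1 and Pdk2 pair lost its call under the 3 scalings without quantile normalization.

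**Figure D4:**
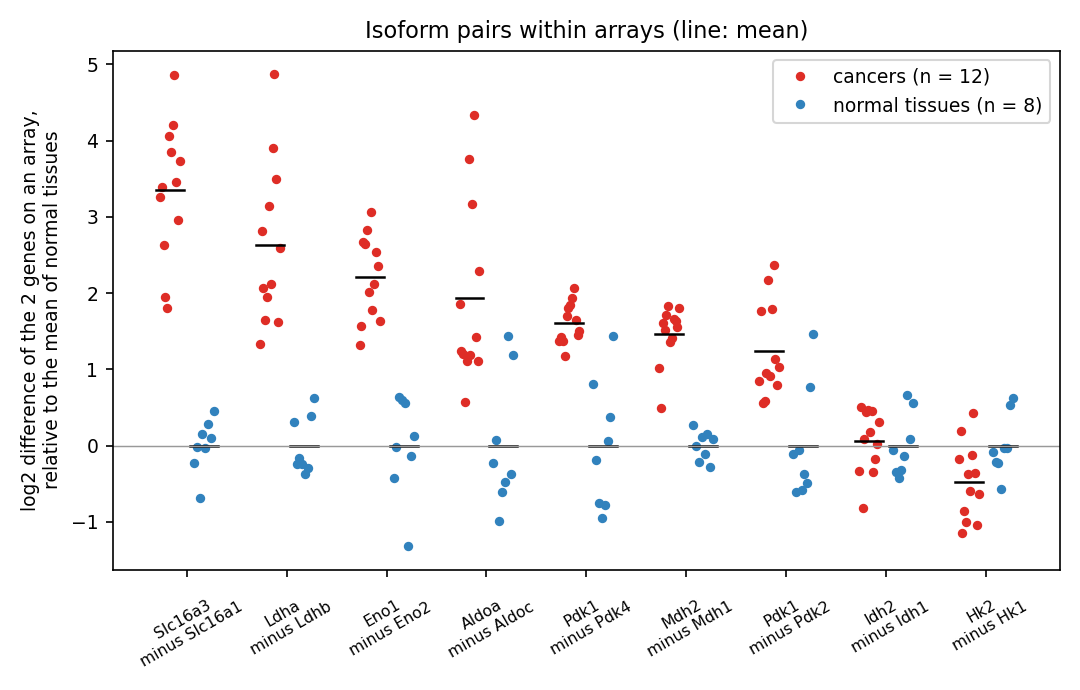
Log2 difference of the 2 genes of each pair on every array, relative to the mean of the 8 normal tissues, with the mean of each tissue as a line. The 12 cancers of the Slc16a3, Ldha, Eno1 and Mdh2 pairs lie above all 8 normal tissues, and the Idh2 pair overlaps.

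The promoters of the lactate pair, of the glucose transporter and of Pgam1 are shown as examples of genes that changed, and because hypoxia-inducible factors bind the core ACGTG. Sequences are from RefSeq on build GRCr8, 250 bases before to 50 after the start of each gene, 5′ to 3′ on the gene's strand, with matches to ACGTG on either strand in capitals. They lie at chr1:106507842-106508141 (plus strand), chr4:177177359-177177658 (minus strand), chr5:138002272-138002571 (plus strand) and chr1:250672902-250673201 (plus strand).
Ldha: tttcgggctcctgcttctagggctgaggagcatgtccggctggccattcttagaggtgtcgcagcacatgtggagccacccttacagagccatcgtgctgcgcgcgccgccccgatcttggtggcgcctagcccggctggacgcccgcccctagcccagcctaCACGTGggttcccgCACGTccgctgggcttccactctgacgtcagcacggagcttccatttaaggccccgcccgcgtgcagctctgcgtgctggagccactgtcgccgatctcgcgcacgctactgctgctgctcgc
Ldhb: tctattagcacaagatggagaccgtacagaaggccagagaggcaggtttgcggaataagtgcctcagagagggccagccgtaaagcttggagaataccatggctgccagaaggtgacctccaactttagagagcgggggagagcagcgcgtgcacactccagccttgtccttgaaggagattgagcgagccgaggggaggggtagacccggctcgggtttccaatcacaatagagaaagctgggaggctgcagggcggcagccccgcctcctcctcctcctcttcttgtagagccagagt
Slc2a1: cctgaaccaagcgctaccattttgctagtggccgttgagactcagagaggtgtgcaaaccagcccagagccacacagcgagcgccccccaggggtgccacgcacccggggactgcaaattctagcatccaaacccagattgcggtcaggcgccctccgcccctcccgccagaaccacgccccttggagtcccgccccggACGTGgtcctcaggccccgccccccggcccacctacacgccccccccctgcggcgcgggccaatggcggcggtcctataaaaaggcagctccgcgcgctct
Pgam1: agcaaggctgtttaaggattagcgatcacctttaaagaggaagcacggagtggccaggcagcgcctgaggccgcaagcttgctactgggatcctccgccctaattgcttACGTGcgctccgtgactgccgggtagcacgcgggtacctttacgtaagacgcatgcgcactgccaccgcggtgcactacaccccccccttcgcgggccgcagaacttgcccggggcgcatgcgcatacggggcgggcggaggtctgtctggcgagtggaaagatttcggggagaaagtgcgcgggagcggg
The Ldha window held 3 matches, all upstream of the start site, and 2 of them overlapped because CACGTG reads the same on both strands. The Slc2a1 and Pgam1 windows held 1 match each, and the Ldhb window held 0. Of genes that rose and are not shown, Slc16a3, Aldoa, Eno1, Tpi1 and Pfkl held 0, Gapdh held 1 and Pdhb held 4.

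Promoters of 39 of the 42 genes were in the RefSeq table. ACGTG, searched on both strands, was in 18 of them (46.2%) and in 19.7% of all 27457 promoters. GCGTG, the other form of that core, was in 18 (46.2%) against 31.1%, and CACGTG, the E-box, which contains ACGTG on each strand, in 7 (17.9%) against 6.65%. Genes called higher held ACGTG in 9 of 19 promoters, and those called lower in 3 of 8. The glycolytic enzymes held it in 6 of 13 and the TCA cycle enzymes in 2 of 6. The median GC content was 61.3% in the 39 promoters and 52.3% in all, and its part in these shares was not tested. A match is a description of letters and not a bound site.

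Pentose phosphate enzymes, which branch from glycolysis to make NADPH and ribose, divided. Tkt, the transketolase, rose by 0.68 (SE 0.11), with 17.36 to 18.08 in cancers and 16.80 to 17.38 in normal tissue. Taldo1, the transaldolase, differed by -0.26 (SE 0.11, adjusted p = 0.0585 by limma) and did not pass.

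The kinases that switch off pyruvate dehydrogenase also divided. Pdk1, a known target of hypoxia-inducible factors, was 7.72, 8.17 and 8.55 in cancers and 6.68, 7.35 and 8.35 in normal tissue, a rise of 0.75 (SE 0.19, adjusted p = 0.00276 by limma). Only 2 cancers exceeded every normal tissue, since LC normal tissues 2 and 3 reached 8.35 and 8.14. The Pdk1 call was lost under the 3 scalings without quantile normalization, where the difference was as low as 0.11. Pdk2 fell by 0.58 (SE 0.21, adjusted p = 0.0251 by limma), a call lost in 10 of 32 alternatives.

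Pdk4, the kinase that rises in fasting and fat use, was 6.43, 6.60 and 7.03 in cancers and 6.73, 7.68 and 8.71 in normal tissue. It fell by 1.0 (SE 0.22, adjusted p = 0.00104 by limma), and 7 of 12 cancers were below every normal tissue. It was well above background on 3 of 6 OP cancers, 0 of 3 OR cancers and 2 of 3 LC cancers, so the size in cancers is partly a bound. In OR rats the normal tissues, with a measured mean of 8.20, were at least 3.24-fold higher than the OR cancers, with a measured mean of 6.50. This fold is the mean of the normal arrays against, on each cancer array, the higher of 2 signals, that of the Pdk4 probe and that of the dimmest probe well above background (adjusted p of the fit, 0.0089 by limma). Within slide 1, with 2 cancers and 2 normal tissues, the Pdk4 difference was 0.011.

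The 4 genes of pyruvate entry into the mitochondrion divided, with 1 higher, 2 lower and 1 that did not pass. Pc, the pyruvate carboxylase that makes oxaloacetate and is abundant in fat, was 10.85, 12.51 and 13.73 in cancers and 14.26, 14.71 and 15.28 in normal tissue, without overlap. It fell by 2.15 (SE 0.35, adjusted p = 5.72e-05 by limma), which is 4.45-fold. The adipocyte markers fell with it, by a median of 3.17 on the log2 scale, and their part in the Pc difference was not tested. Within the pyruvate dehydrogenase complex, Pdhb, the beta subunit of its first enzyme, was 10.33, 10.83 and 11.13 in cancers and 8.60, 9.38 and 10.37 in normal tissue, a rise of 1.44 (SE 0.17, adjusted p = 2.45e-06). Pdha1, the alpha subunit of the same enzyme, moved the other way, with 10.67 to 11.14 in cancers and 11.16 to 11.58 in normal tissue and no overlap. It fell by 0.48 (SE 0.07, adjusted p = 1.41e-05 by limma), a call lost in 3 of 32 alternatives. Dlat, the second enzyme, differed by 0.36 (SE 0.15) and did not pass (adjusted p = 0.0515), though 13 of 32 alternatives called it.

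Of the 7 TCA cycle enzymes, 3 rose, 1 fell and 3 did not pass, with a median difference of 0.21. That median was 0.38 to 0.44 under the 3 scalings without quantile normalization, with the mean of the probes of a gene, and in the fits blocked on slide or on scan day. Idh3a, a subunit of the NAD-dependent isocitrate dehydrogenase, was 9.49 to 10.21 in cancers and 7.91 to 9.40 in normal tissue, without overlap, and rose by 0.97 (SE 0.16, adjusted p = 9.22e-05 by limma). Mdh2, the mitochondrial malate dehydrogenase, was 11.55 to 12.36 against 10.77 to 11.56, and rose by 0.93 (SE 0.11). Fh, the fumarase, passed narrowly at 0.32 (SE 0.13, adjusted p = 0.0462 by limma), and lost its call in 17 of 32 alternatives. Its 3 probes gave 0.32, 0.47 and 1.33.

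Suclg1, the alpha subunit of succinyl-CoA ligase, fell by 0.36 (SE 0.07, adjusted p = 5.57e-04 by limma), and 10 of 12 cancers were below every normal tissue. Cs, the citrate synthase that opens the cycle, was 12.34, 12.80 and 13.34 in cancers and 12.38, 12.59 and 12.95 in normal tissue. Its difference of 0.21 (SE 0.11) did not pass (adjusted p = 0.116), and another, dimmer Cs probe gave 0.68. Idh2 (-0.12, SE 0.12), the mitochondrial NADP-dependent isocitrate dehydrogenase, and Ogdh (-0.17, SE 0.10), a subunit of the oxoglutarate dehydrogenase complex, did not pass either. A dimmer Idh2 probe gave 0.24 (SE 0.12), of the opposite sign, and did not pass. Of the cytosolic partners, Mdh1 fell by 0.57 (SE 0.12), a call lost in 2 of 32 alternatives, and Idh1 differed by -0.21 (SE 0.15), which did not pass.

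Hif1a, the oxygen-regulated subunit of a hypoxia-inducible factor, whose activity is set mainly at the protein level, was 11.72, 12.02 and 12.96 in cancers and 12.01, 12.17 and 12.47 in normal tissue. Its difference was -0.13 (SE 0.13, 95% interval -0.41 to 0.15), and another probe with 10 replicate spots gave -0.02.

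Setting the classes side by side, glycolytic enzymes rose more than TCA cycle enzymes on most cancer arrays. Relative to the normal tissues, the mean over 14 glycolytic enzymes was -0.08 at the lowest, 0.97 at the median and 1.32 at the highest cancer, and -0.08 to 0.08 in normal tissue. The mean over 7 TCA cycle enzymes was -0.13, 0.26 and 0.45 in cancers and -0.17 to 0.21 in normal tissue. The glycolytic mean minus the TCA mean was 0.61 ± 0.40 (SD, n = 12) in cancers, relative to normal tissues with an SD of 0.10 (n = 8) around their own mean, and 11 of 12 cancers were above the highest normal tissue, 0.13. No test was made on these means because the members were chosen with results known. With the groups weighted equally the difference was 0.67, it ranged from 0.64 to 0.76 over the other processing choices, and it was 0.64 without the arrays that stood apart in markers. All 8 normal tissues and 4 cancers were scanned on 1 day and the other 8 cancers on another. The median over glycolytic enzymes exceeded that over TCA cycle enzymes by 0.75 in the fit, by 0.49 with slide as a block and by 0.39 with scan day as a block. Slides 1, 2 and 3 hold 2, 1 and 1 cancers beside normal tissue. Within them the glycolytic mean minus the TCA mean, cancers minus normal tissues, was 0.35, 0.30 and 0.86. The glycolytic medians there were 0.55, 0.82 and 1.01, and the TCA medians 0.34, 0.47 and 0.16. Slides 4 and 5 held cancers only.

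**Figure D5:**
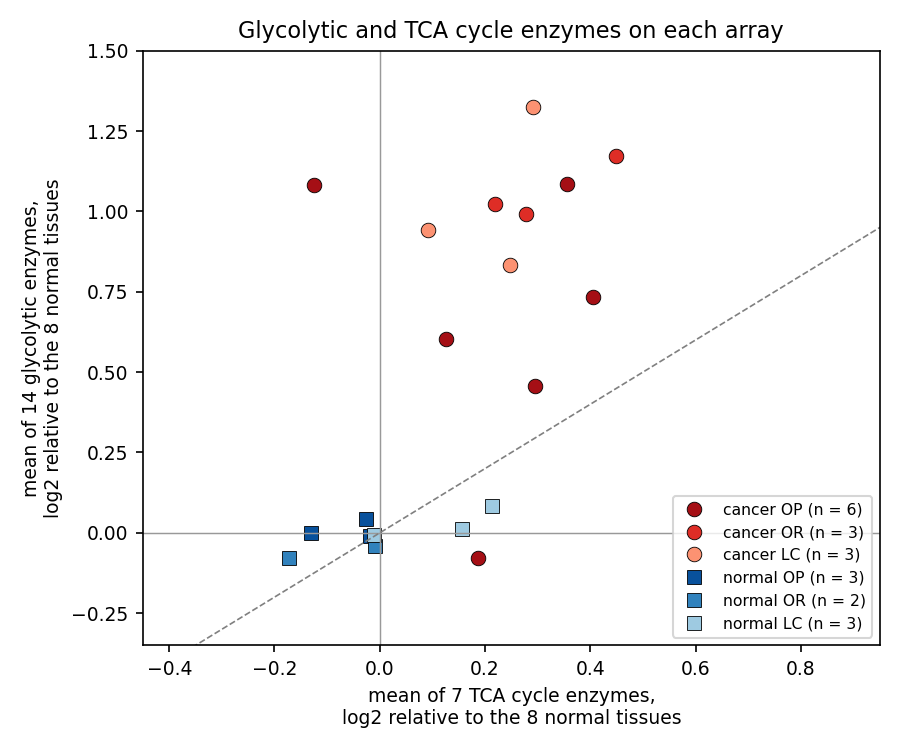
Mean of 14 glycolytic enzymes against mean of 7 TCA cycle enzymes on each array, as log2 relative to the 8 normal tissues, which cluster around 0. On the dashed line both classes differ equally. Of the 12 cancers 11 lie above it, and OP cancer 1 lies below it beside the normal tissues.

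OP cancer 1 stood out among the cancers. It held the lowest level of 11 of the 14 glycolytic enzymes among the 12 cancers, and its glycolytic mean, -0.08, lay at the low end of the normal tissues. The other 5 OP cancers had glycolytic means of 0.46 to 1.08. Its adipocyte markers (7.78), luminal markers (12.32) and proliferation markers (9.18) lay within the range of the other cancers, and 67.3% of its probes were well above background. Its Slc16a3 level, 11.66, was above every normal tissue, and its Pc level, 10.85, was the lowest of all arrays.

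Each obesity group was then compared with its own normal tissue. In OP rats 16 members rose and 7 fell, beside 44.5% of all genes called (21.1% higher and 23.5% lower). In OR rats 18 rose and 5 fell, beside 28.6% called (14% higher and 14.5% lower). In LC rats 16 rose and 5 fell, beside 43.6% called (20% higher and 23.6% lower). Aldoa, Pfkl, Tpi1, Gapdh, Pgk1, Pgam1, Eno1, Ldha, Slc16a3, Tkt, Pdhb, Idh3a and Mdh2 rose, and Ldhb, Pfkfb3, Pc and Pdha1 fell, in all 3 groups. Slc16a3 differed by 2.53 (SE 0.48) in OP, 3.53 (SE 0.62) in OR and 3.24 (SE 0.55) in LC rats. Ldhb differed by -1.27, -1.94 and -1.34, and Pc by -2.06, -2.29 and -2.12, in the same order. The counts depended on single arrays: the 16 in OP rats became 10 without OP normal tissue 2, and the 16 in LC rats became 10 without LC cancer 1. Leaving out an OR normal tissue leaves a single one in that group, so no counts are given for it. Without the 5 arrays that stood apart in markers, 13 members rose in OP rats. That choice left a single normal tissue in OR rats and a single one in LC rats, so no counts are given there. With the slide as a block 7 rose in OP rats.

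Slc2a1 passed in OR (1.95, SE 0.41) and LC rats (1.52, SE 0.37) and not in OP rats (0.76, SE 0.32, adjusted p = 0.0662 by limma). That is not shown to be a difference between the groups. In the test of the difference itself, OP against OR, Slc2a1 gave -1.20 (SE 0.52), with an adjusted p of 1 by limma. For each of the 3 tests of whether the tissue difference depended on the obesity group (OP against OR, OP against LC and OR against LC), 0% of 36043 genes were called by limma. At an unadjusted p under 0.05, 3, 0 and 3 members and 970, 3074 and 2928 genes were counted. The members with the smallest p were Pgam1 (-0.67, SE 0.27), Slc2a1 and Ldha (-1.08, SE 0.48) for OP against OR. For OP against LC they were Hk1 (-0.72, SE 0.37), Aldoc (-1.84, SE 1.0) and Eno1 (-0.72, SE 0.42), and for OR against LC Pgk1 (1.53, SE 0.61), Hk1 (-0.95, SE 0.42) and Mdh1 (0.69, SE 0.31).

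Among the cancers alone, no member and 0% of genes passed for OP against OR, OP against LC or OR against LC, by limma. The counts at an unadjusted p under 0.05 were 9, 2 and 1 members, and 3963, 2638 and 1524 genes. For OP against OR the smallest p-values belonged to Pgam1, Ldha and Slc2a1. Pgam1 was 15.37, 15.90 and 16.11 (lowest, median and highest) in the 6 OP cancers, and 16.25, 16.30 and 16.67 in the 3 OR cancers, which lay above all OP cancers. Its difference of -0.61 (SE 0.18, 95% interval -0.99 to -0.22) had an adjusted p of 0.375. Ldha was 10.78, 11.85 and 12.42 in OP cancers and 12.29, 12.81 and 12.90 in OR cancers, which overlapped (-0.85, SE 0.32, adjusted p = 0.401 by limma). Slc2a1 was 12.12, 12.72 and 13.65 in OP cancers and 13.43, 13.58 and 14.42 in OR cancers, again overlapping (-0.96, SE 0.37, adjusted p = 0.408 by limma).

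The median difference of the 14 glycolytic enzymes was -0.47 for OP against OR cancers and -0.41 for OP against LC cancers, which share the OP samples. Without OP cancer 1 these medians were -0.33 and -0.23, and without LC cancer 1 the OP against LC median was -0.22. Slide 4 held OP cancers 3 to 6 alone, and slide 5 held OR cancers 2 and 3 and LC cancers 2 and 3 alone. Between the OP cancers of slide 4 and the OR and LC cancers of slide 5, slide and obesity group cannot be told apart. The glycolytic means relative to normal tissue were 0.65 ± 0.44 (SD, n = 6) in OP, 1.06 ± 0.10 (SD, n = 3) in OR and 1.03 ± 0.26 (SD, n = 3) in LC cancers, and OP cancers 3 and 6, at 1.08, lay within the range of the others. For OP against LC the smallest p-values were those of Pdhb (-0.36, SE 0.13, adjusted p = 0.552), Pgam1 (-0.40, SE 0.18) and Aldoa (-0.77, SE 0.42). For OR against LC they were those of Pdha1 (-0.26, SE 0.11, adjusted p = 0.995), Pdk4 (-0.26, SE 0.16) and Slc2a1 (0.68, SE 0.43).

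In normal tissue too, 0% of genes were called by limma for OP against OR, OP against LC and OR against LC. At an unadjusted p under 0.05 the counts were 0, 6 and 6 members, and 219, 3170 and 3247 genes. Eno1 and Cs led both comparisons with LC, which share the LC samples. Eno1 was 14.99, 15.11 and 15.06 in OP, 15.02 and 15.09 in OR, and 14.76, 14.80 and 14.72 in LC normal tissue, so the LC samples lay below the others. It differed by 0.29 (SE 0.07, adjusted p = 0.271) for OP against LC and 0.30 (SE 0.08, adjusted p = 0.337) for OR against LC. Cs differed by -0.31 (SE 0.10) and -0.34 (SE 0.11), Gapdh by -0.30 (SE 0.10) for OP against LC, and Mdh2 by -0.47 (SE 0.16) for OR against LC. Luminal markers were low in 2 of the 3 LC normal tissues (9.39 and 9.93, against 11.10 to 11.39 in the other normal tissues), and their part in these differences was not tested. For OP against OR the smallest p-values were those of Aldoa (0.14, SE 0.11), Slc2a1 (0.23, SE 0.19) and Eno2 (0.51, SE 0.47).

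Other genes of the same pathways divided more evenly than the members. For these lists and those below, the shares over all genes tested were 29% called higher and 33.5% called lower. Outside the members, 21 of 27 listed glucose entry and glycolysis genes were measured, of which 6 rose and 9 fell in the cancers. Slc2a4, the insulin-responsive glucose transporter of fat and muscle, fell by 4.56 on the log2 scale (SE 0.14), and Pfkfb1, a relative of Pfkfb3 from liver and muscle, by 3.43 (SE 0.15). Slc2a8 (1.22, SE 0.19), a glucose transporter, Gckr (1.15, SE 0.26), the glucokinase regulator, and Bpgm (1.13, SE 0.16), the bisphosphoglycerate mutase, rose. Of 5 measured gluconeogenesis genes 3 rose, among them the fructose bisphosphatases Fbp2 (1.93, SE 0.37) and Fbp1 (1.47, SE 0.47) and the glucose-6-phosphatase catalytic subunit G6pc3 (1.02, SE 0.13). Pck1, the phosphoenolpyruvate carboxykinase that also feeds glycerol synthesis in fat, fell by 4.98 (SE 0.14) with a signal well above background on 7 of 12 cancers. The falls of Slc2a4 and Pck1 stood beside those of all 14 adipocyte markers, and the part of fat cells in them was not tested.

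Among 10 other genes of the TCA cycle 5 rose, 4 fell and the median was 0.23, and only Fahd1 (1.39, SE 0.18), an oxaloacetate decarboxylase, differed by 1 or more. Among 13 genes of citrate, malate and glutamine handling, 5 rose and 5 fell. The aspartate transaminases Got2 (1.83, SE 0.15) and Got1 (1.48, SE 0.17), which serve the malate-aspartate shuttle, and the glutaminase Gls2 (1.67, SE 0.25) rose, while the dicarboxylate carrier Slc25a10 fell by 1.03 (SE 0.16). Of 6 carriers and partners for lactate and pyruvate 3 rose and 2 fell, and Emb (1.45, SE 0.37), a chaperone of monocarboxylate carriers, rose most. Of 4 pyruvate dehydrogenase genes 0 rose and 1 fell, and of 3 pentose phosphate genes 2 rose and 0 fell.

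Among 23 measured hypoxia genes, 8 rose, 6 fell and 9 did not pass, with a median of 0.01. Over all genes tested 29% were called higher and 33.5% lower, with a median of -0.03. The prolyl hydroxylase Egln3 (1.98, SE 0.39), the stress-response gene Ddit4 (1.66, SE 0.33) and the secreted glycoprotein Stc2 (1.29, SE 0.34) rose. Epas1, the hypoxia-inducible factor subunit prominent in endothelium, fell by 1.79 (SE 0.30), beside 4 of 4 endothelial markers that fell by a median of 1.36, and the carbonic anhydrase Car12 fell by 1.17 (SE 0.15).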

How the data were processed

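Labelled Cy3 RNA of 20 samples was read on single-colour Agilent arrays by the authors with Feature Extraction, version 10.7.3.1 per the submitters' processing notes and 9.5.1.1 per the file headers. The deposited files hold spot intensity on a linear scale, not normalized, with quality flags. The deposited value table holds log2 values by the authors. Set against the scanner files, its values were the processed signal on the log2 scale, scaled at each array's 75th percentile and then centred for each probe. Here the median spot signal was background-corrected by normexp (offset 50) and taken to log2. It was then averaged over the spots of a probe without an outlier mark, and quantile-normalized. Control spots, 115 probes whose spots were all marked as outliers on an array and 825 probes that reached a signal well above background on under 0.5 of arrays in every group were dropped. Of several probes for a gene the brightest was used (10 members), which left 36043 genes.

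Differences were fitted with limma 3.58.1 in R 4.3.3 on 6 groups, with Benjamini-Hochberg adjustment over all genes, and cancer against normal tissue averaged the obesity groups equally. Array numbers, 12 cancers and 8 normal tissues, limit the precision. Promoters came from RefSeq tables. The fit was tested on simulated data. The members, gene lists and markers were chosen with earlier results of these data known. By the naming rule, members called at an absolute log2 difference of 1 or more, with Hif1a, Ldha, Ldhb, Pdk1, Pdk4, Cs and Pc, were given in full, and other listed genes named if called at 1 or more, at most 5 in each direction and list. In comparisons with no call the 3 members of smallest p were named. Alternatives were other scalings, background corrections, filters and probe choices, slide, scan day and replicate number as blocks, and single arrays left out.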

Additional observations from a re-analysis of the deposited data

Results flagged for a closer look

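Of 78 groups of member levels examined for a single distant sample, 8 held one. The rule flags about 1 in 20 groups of independent samples from 1 population. These genes share the same arrays and the normal tissues pool the obesity groups, so the count cannot be weighed against that rate. LC normal tissue 1 was low among the 8 normal tissues for Slc2a1 (11.21, the others 11.73 to 12.17), Pfkl (7.59, the others 8.36 to 8.97), Slc16a1 (7.48, the others 8.88 to 9.74) and Slc16a3 (8.88, the others 9.97 to 10.62). It was high for Ogdh (7.86, the others 7.41 to 7.59). The same array had the lowest luminal marker level, 9.39, and the highest adipocyte marker level, 12.46, and their part in these values was not tested. LC normal tissue 2 was high for Taldo1 (14.80, the others 13.89 to 14.31), and its proliferation marker level, 9.55, was the highest of the normal tissues (the others 7.49 to 8.66). Among the 6 OP cancers, OP cancer 1 was low for Taldo1 (13.55, the others 14.05 to 14.26), and OP cancer 6, which had the highest skeletal muscle marker level, 10.91, was high for Ogdh (8.16, the others 7.34 to 7.63).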

How the results depend on the processing

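The difference of Hk2 between cancers and normal tissue turned to -0.80 under 75th-percentile scaling of the processed signal, -0.55 under that scaling after normexp and -0.80 in the authors' deposited table, and in OR rats to -0.34, -0.38 and -0.34. Pdk4 was 0.011 (cancer versus normal) within slide 1, and the Hk2 and Hk1 pair was 0.24 with quantile normalization of the processed signal. The cause of these turns was not tested. In OP rats 7 members were called higher with slide as a block. In OR rats 3 were called lower in the authors' deposited table and 2 with slide as a block. In LC rats 10 were called higher when the groups were fitted alone. Leaving out the arrays that stood apart in markers was an alternative chosen after seeing the data. It left a single normal tissue in OR rats and a single one in LC rats, so no counts are given there. Beside these, the single arrays left out and the replicate block, counts of members called stayed within 1.5 times.

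With 1 array left out, members called higher ranged from 20 to 23 and lower from 7 to 10 over both tissues, from 10 to 17 and 5 to 8 in OP rats, from 10 to 19 and 0 to 6 in OR rats, and from 10 to 16 and 4 to 7 in LC rats. For the same reason no range is given for OR normal tissue against OP or LC normal tissue. The other obesity counts were 0, the passing pairs ranged from 7 to 8, and the glycolytic minus TCA mean, cancers minus normal tissues, from 0.61 to 0.71.

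Replicate numbers did not pair the samples: over 40 same-numbered pairs from different groups the median correlation of deviations was -0.05 (-0.35 to 0.28). With the replicate block, 20 members were called higher and 9 lower, and 10 higher in OP rats.

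Pdk4 was well above background on 5 of 12 cancer arrays and Pfkfb3 on 11, so signal over background limits their levels in cancers.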
